A study of Mus musculus with 9 samples.

Results

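In the mouse hippocampus, 7 genes linked to the stress hormone corticosterone stood at a higher level after a high-methionine diet than after a standard diet in every sample, and in mice that had later received betaine 6 of the 7 were lower again while 1, Plin4, was not. Of all genes tested, 4.71% likewise had every sample of the diet above every sample of the standard diet. In the betaine mice 25.5% of all genes tested were called lower than after the diet, and 22.8% higher. The 7 genes are Fkbp5, Sgk1, Cdkn1a, Arrdc2, Spsb1, Plin4 and Etnppl. They are 7 of 54532 genes in the deposited tables and were selected on the comparison of diet with standard diet: among genes known to respond to glucocorticoids they had the smallest p-values there. Their values in that comparison are therefore given as a description, without a test. Only the samples of mice given betaine took no part in the selection. A lower value after betaine than after the diet is favoured by the selection, as is a higher value than after the standard diet. The p-values of the 7 genes in both comparisons carry that limit.

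Glucocorticoids act through a receptor that rests in the cytoplasm with chaperones, enters the nucleus once the hormone is bound and raises or lowers transcription of its target genes. In the brain these targets are found in neurons, glia and vessel cells, and they include a co-chaperone that restrains the receptor, a kinase named after the hormone, brakes of cell division, adaptor proteins of the ubiquitin system and enzymes of lipid metabolism. The hippocampus is rich in receptors for these hormones and takes part in the feedback that ends a stress response. The hormone itself was not among the measurements used here.

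Total RNA of the hippocampus was sequenced in 9 samples from wild-type C57BL/6 mice labelled male and 6 to 8 weeks old at purchase, with 3 samples in each of 3 groups. The strain labels of the Bet+HMD samples count upward from C57BL/6, which was read as a filling error, so C57BL/6 there is an inference. Standard chow was given to Con mice. For 8 weeks HMD mice were instead fed chow enriched in methionine. Bet+HMD mice were given 2.5% (w/v) betaine, a methyl donor, in their drinking water for 2 weeks after 8 weeks of that diet. The sources used here do not say whether they stayed on the enriched chow while drinking betaine. The study's methods describe behavioural tests and a fast before tissue was taken from Con and HMD mice, and whether betaine mice were handled in the same way is not given in the sources used here.

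Expression is given as FPKM, which scales reads by the length of the gene and the size of the library, so that levels can be compared between genes. Because whole tissue was sequenced, more cells of a type and more RNA per cell cannot be told apart. The values of single samples are those of the later table, which holds all 9, whereas HMD and Con were compared in the earlier table, where their values differ slightly. The libraries held 16031464 to 18291952 reads in genes. The Bet+HMD libraries are listed only in a table deposited later than the first one, had 25315 to 25663 genes with a read against 20816 to 23272 in the other libraries, and differed less among themselves: the median SD over all genes was 0.0797 on the log2(FPKM + 1) scale in Bet+HMD, 0.178 in Con and 0.152 in HMD. Betaine, the 2 further weeks, a possible end of the diet and the later deposit cannot be told apart. Of all genes tested 25.5% were lower and 22.8% higher in Bet+HMD than in HMD, 3489 and 3118 genes. With values rescaled to TPM, which gives each library the same total, these counts were 1974 and 4496, and against Con they went from 2777 lower and 2645 higher to 1432 and 3980. The study's methods speak of female mice, whereas Ddx3y, a gene of the Y chromosome, was read at 12.7 to 21.2 FPKM in the 9 libraries and Xist, the transcript of the silenced X chromosome, at no more than 0.0449.

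Fkbp5 encodes a co-chaperone of the receptor complex that lowers its affinity for the hormone and is itself induced by it (ENSMUSG00000024222, GRCm38 chromosome 17, 28399094 to 28517527, minus strand). It was read at 6.98, 7.31 and 7.66 FPKM in the Con samples. The HMD samples had 11.6, 11.2 and 11.5 FPKM, and the Bet+HMD samples 4.55, 4.87 and 4.56 FPKM. The 3 groups did not overlap, and the order was HMD, then Con, then Bet+HMD. In the earlier table the HMD mean was 1.57-fold that of Con, a difference of 0.59 (SE 0.0946) in log2(FPKM + 1). Bet+HMD was lower than HMD by a log2 difference of -1.13 (SE 0.0676, limma adjusted p = 5.44e-05), which was 2.45-fold in mean FPKM. The selection favours such a fall for each of the 7 genes, so their p-values against HMD are not an independent test. Fkbp5 was also the only one of the 7 genes called lower in Bet+HMD than in Con, with a log2 difference of -0.56 (SE 0.0767, limma adjusted p = 0.00208).

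Sgk1 encodes the serum and glucocorticoid regulated kinase, which promotes the retention of ion channels and transporters at the cell surface (ENSMUSG00000019970, chromosome 10, 21882184 to 21999903, plus strand). It had the highest level of the 7 genes, with 25.7, 29.8 and 24.6 FPKM in Con. The level was 53.9, 48.1 and 48.2 FPKM in HMD, and 26.2, 27.0 and 26.1 FPKM in Bet+HMD. Every HMD sample lay above all samples of both other groups, and the Bet+HMD samples lay within the range of Con. The HMD mean of the earlier table was 1.88-fold that of Con, a log2 difference of 0.89 (SE 0.120). Sgk1 was lower in Bet+HMD than in HMD by a log2 difference of -0.90 (SE 0.0717, limma adjusted p = 0.000146). Against Con the difference was -0.01, with a 95% confidence interval from -0.23 to 0.21 (limma adjusted p = 0.947).

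The region before each annotated start of the 7 genes was searched for the letters of the element to which the glucocorticoid receptor binds as a pair, AGAACA and TGTTCT separated by 3 bases. This was done in the 250 bases before 14 starts that RefSeq gives for the 7 genes on GRCm38.p6. The whole element was found before 1 start, the fifth of 6 of Sgk1, and in 3 of 32851 windows of all genes (0.00913%). That window is shown because it is the one promoter of the 7 genes that carries the whole element, with capitals for each AGAACA or TGTTCT and for the bases between them in the whole element.
Sgk1, chr10:21993640-21993889, plus strand, GRCm38.p6: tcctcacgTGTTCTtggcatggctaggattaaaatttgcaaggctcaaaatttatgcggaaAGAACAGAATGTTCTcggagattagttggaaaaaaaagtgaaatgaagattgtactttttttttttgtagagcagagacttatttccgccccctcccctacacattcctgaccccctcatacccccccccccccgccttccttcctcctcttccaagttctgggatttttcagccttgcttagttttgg
The element began 189 bases before the start, and a further TGTTCT began 242 bases before it. A single arm, AGAACA or TGTTCT, was found before 3 of the 14 starts, all of Sgk1, and in 16.1% of all windows. The shorter core, ACA and TGT separated by 3 bases, was found before 2 of the 14 starts, also of Sgk1, and in 5.84% of all windows; it overlaps the whole element in the window shown. Of the other 6 genes none had these letters in its windows, which says nothing of elements elsewhere, such as the introns in which many elements of this receptor lie. Which of the 6 starts of Sgk1 was used in these samples was not measured, because the tables give 1 value for a gene.

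Cdkn1a encodes p21, an inhibitor of cyclin-dependent kinases that halts the cell cycle (ENSMUSG00000023067, chromosome 17, 29090976 to 29100727, plus strand). Con samples had 2.99, 3.06 and 3.21 FPKM. HMD samples had 11.2, 7.42 and 8.40 FPKM, and Bet+HMD samples 2.56, 2.96 and 2.65 FPKM. HMD was again apart from both other groups, with the first HMD sample well above the other two. The HMD mean of the earlier table was 3.01-fold that of Con, a log2 difference of 1.31 (SE 0.147), the largest of the 7 on this scale. In Bet+HMD the gene was lower than in HMD by a log2 difference of -1.41 (SE 0.139, limma adjusted p = 0.000318), or 3.30-fold in mean FPKM. All Bet+HMD samples lay just below all Con samples, but the difference of -0.13 was not called (95% confidence interval -0.34 to 0.07, limma adjusted p = 0.259). It came to 0.04 under TPM and was called, at -0.27 (limma adjusted p = 0.0457), under quantile normalization.

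Cdkn1a is best known as a target of p53, which binds a pair of half-sites. The window before the first of its 2 RefSeq starts is shown because it is the one of the 14 with letters of a p53 half-site, in capitals, a pattern that reads the same on both strands and is held by 7.13% of all windows.
Cdkn1a, chr17:29090729-29090978, plus strand, GRCm38.p6: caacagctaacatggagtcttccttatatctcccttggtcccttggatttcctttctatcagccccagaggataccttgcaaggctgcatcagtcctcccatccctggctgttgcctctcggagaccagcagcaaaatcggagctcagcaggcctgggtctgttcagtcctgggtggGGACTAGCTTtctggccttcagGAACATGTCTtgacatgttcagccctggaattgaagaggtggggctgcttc
The 2 stretches that match a half-site in every letter began 73 and 51 bases before the start. Only exact matches were marked, and the bases tgacatgttc that directly follow the second stretch depart from the pattern in their first letter alone. The 2 marked stretches therefore need not be a pair that p53 binds. Cdkn1a shares 273 bases of its exons (7.68%) with AC167363.2 on the opposite strand, whose level did not exceed 0.283 FPKM in any sample. Whether reads were counted by strand is not given in the sources used here, so that share of the reads of Cdkn1a is uncertain.

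Arrdc2 encodes an arrestin domain-containing protein of a family of adaptors for ubiquitin ligases (ENSMUSG00000002910, chromosome 8, 70835129 to 70839720, minus strand). Its level was 3.01, 2.67 and 4.05 FPKM in Con. It was 7.87, 7.17 and 7.80 FPKM in HMD, and 4.13, 4.83 and 3.45 FPKM in Bet+HMD. HMD lay above both other groups, which overlapped each other. In the earlier table the HMD mean was 2.33-fold that of Con, a log2 difference of 1.02 (SE 0.138). Arrdc2 was lower in Bet+HMD than in HMD by a log2 difference of -0.75 (SE 0.110, limma adjusted p = 0.00151), and its difference from Con was 0.28 (95% confidence interval -0.09 to 0.64, limma adjusted p = 0.191). Without the third Con sample, the highest of the 3, that difference was called (0.41, limma adjusted p = 0.0469), and under TPM it came to 0.54 without being called.

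Spsb1 encodes a substrate receptor of a ubiquitin ligase with a SPRY domain and a SOCS box (ENSMUSG00000039911, chromosome 4, 149896283 to 149955043, minus strand). Con samples had 4.55, 4.31 and 4.95 FPKM. HMD samples had 8.00, 7.84 and 8.89 FPKM, and Bet+HMD samples 5.07, 4.57 and 4.59 FPKM. The picture was that of Arrdc2, with HMD apart and the other groups overlapping. In the earlier table the HMD mean was 1.80-fold that of Con, a log2 difference of 0.72 (SE 0.105). The fall to Bet+HMD was a log2 difference of -0.69 (SE 0.0808, limma adjusted p = 0.000611), and Bet+HMD differed from Con by 0.04 (95% confidence interval -0.17 to 0.24, limma adjusted p = 0.771). Spsb1 shares 103 bases of its exons (2.34%) with Gm13070 on the opposite strand, whose level did not exceed 0.675 FPKM.

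Plin4 encodes a perilipin, a coat protein of lipid droplets (ENSMUSG00000002831, chromosome 17, 56100591 to 56109803, minus strand). It had the lowest level of the 7 genes in Con, with 0.919, 0.801 and 1.35 FPKM from 75 to 133 reads. HMD samples had 4.53, 3.00 and 3.94 FPKM, and Bet+HMD samples 3.46, 3.75 and 3.83 FPKM. The Bet+HMD samples lay inside the range of HMD and above all of Con. The HMD mean of the earlier table was 3.78-fold that of Con, a log2 difference of 1.26 (SE 0.171). Bet+HMD and HMD differed by -0.03 (95% confidence interval -0.33 to 0.27, limma adjusted p = 0.851). Against Con, Plin4 was higher in Bet+HMD by a log2 difference of 1.22 (SE 0.126, limma adjusted p = 0.000757), or 3.60-fold in mean FPKM. Plin4 shares 17 bases of its exons (0.294%) with Hdgfl2 on the opposite strand, which was read at 6.73 to 13.1 FPKM.

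Etnppl encodes the lyase that breaks down phosphoethanolamine, a building block of membrane lipids, and in the brain is known as a gene of astrocytes (ENSMUSG00000019232, chromosome 3, 130617448 to 130637521, plus strand). Its level was 4.93, 5.61 and 4.71 FPKM in Con. It was 11.2, 8.59 and 9.15 FPKM in HMD, and 7.25, 6.99 and 6.85 FPKM in Bet+HMD. The 3 groups did not overlap, and here Bet+HMD stood between the other two. In the earlier table the HMD mean was 1.91-fold that of Con, a log2 difference of 0.81 (SE 0.131). Etnppl was lower in Bet+HMD than in HMD by -0.40 (SE 0.101, limma adjusted p = 0.0151) and higher than in Con by 0.40 (SE 0.0860, limma adjusted p = 0.0106). The first of these calls was lost when values were rescaled to TPM (log2 difference -0.24, limma adjusted p = 0.107) and without the second or the third Bet+HMD sample (-0.40 and -0.38), and the second without the first Bet+HMD sample (0.38, limma adjusted p = 0.0528).

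**Figure D1:**
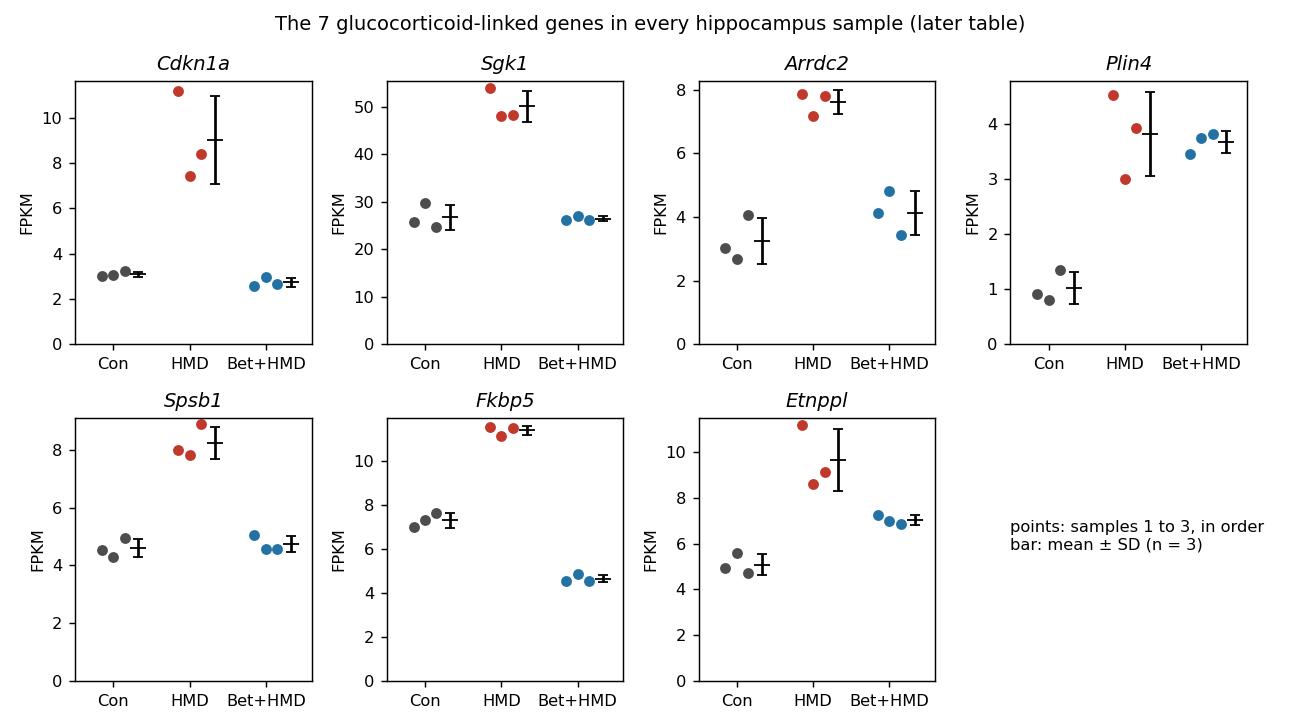
Level of the 7 genes in FPKM (vertical axes, starting at 0) in the Con, HMD and Bet+HMD samples of the later table. Points are samples 1 to 3 in order and bars are the mean ± SD of 3 samples; the HMD points lie above all Con points in the 7 panels, and Plin4 is the panel in which the Bet+HMD points stay among the HMD points.

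Seen together, the 7 genes had differences of 0.59 to 1.31 in log2(FPKM + 1) between HMD and Con, with a median of 0.89 against -0.00 over the 12989 genes tested. All 7 had every HMD sample above every Con sample, as the selection favoured, and 4.71% of all genes tested did. They held places 2, 3, 4, 5, 8, 12 and 13 when the genes tested were ordered by p. No gene of the whole table passed limma's test in this comparison (0 of 12989, 0%), while 592 had an unadjusted p under the threshold of 0.05; voom, limma's method for reads, also called 0, with 541. Just outside the selection, in the same order of p, lay Hif3a with 1.56 ± 0.468 FPKM (SD, n = 3) in Con and 3.59 ± 0.590 in HMD, Nfkbia with 14.3 ± 0.970 and 22.4 ± 2.74, and Sult1a1 with 7.44 ± 0.886 and 11.5 ± 0.950.

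In Bet+HMD against HMD, 6 of the 7 genes were called lower, where 25.5% of all genes tested were, and none was called higher, where 22.8% of all genes were. The median difference of the 7 was -0.75 against -0.03 over all genes. The HMD samples of this comparison also took part in the selection of the genes, so a lower value in any other group is favoured by it; the Con samples did too, so a higher value in any other group than in Con is favoured as well. In Bet+HMD against Con, 2 of the 7 (Plin4 and Etnppl) were called higher, where 19.4% of all genes were, 1 (Fkbp5) was called lower, where 20.4% were, and 4 were not called. The median of the 7 there was 0.04 against -0.04 over all genes. These counts are of few genes. By group means, Sgk1, Spsb1 and Cdkn1a in Bet+HMD differed from Con by -0.13 to 0.04 in log2(FPKM + 1), and Arrdc2 and Etnppl lay between Con and HMD, Plin4 near HMD and Fkbp5 below Con.

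**Figure D2:**
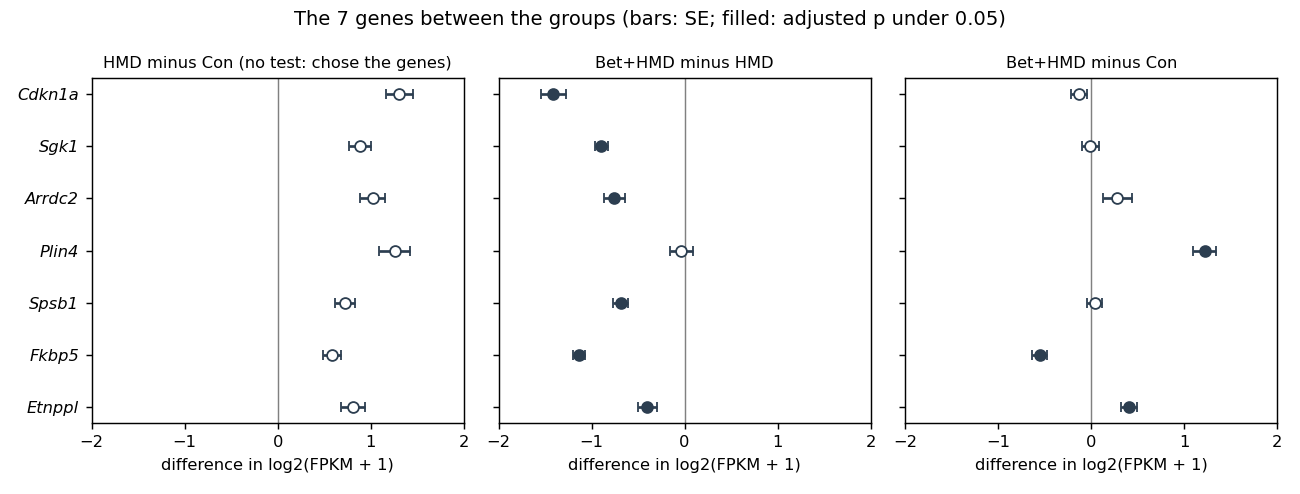
Difference between groups in log2(FPKM + 1) for each of the 7 genes (horizontal axes), with bars for the limma SE and filled points for an adjusted p under 0.05 in the comparisons with Bet+HMD; the left panel shows the comparison that chose the genes and has no test. In the middle panel 6 genes lie left of 0 and Plin4 at -0.03, and in the right panel Plin4 at 1.22 and Fkbp5 at -0.56 lie farthest apart.

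A ratio between genes of the same library does not depend on how libraries are scaled. The log2 ratio of Plin4 to Cdkn1a was -1.63 ± 0.345 (SD, n = 3) in Con, -1.23 ± 0.121 in HMD and 0.43 ± 0.0946 in Bet+HMD. The ratio of Plin4 to Sgk1 was -4.74 ± 0.515, -3.73 ± 0.236 and -2.85 ± 0.0782 in the same order. For each of the 6 other genes all Bet+HMD samples had a higher ratio than all HMD samples, also for Etnppl, where the means were -1.34 and -0.94. These ratios show that Plin4 and the other genes stood in unequal proportion in the groups, not which of them moved.

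**Figure D3:**
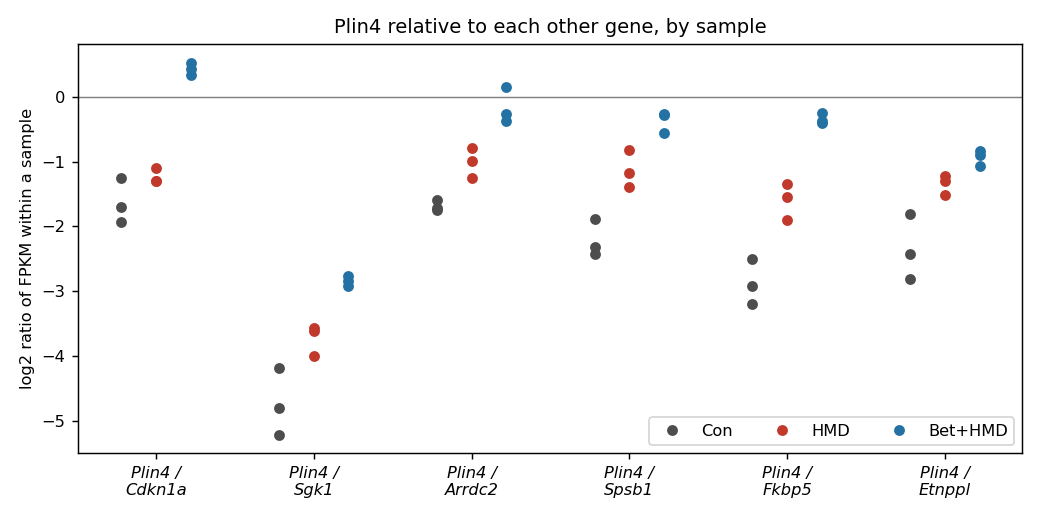
Log2 ratio of the FPKM of Plin4 to that of each of the other 6 genes within a sample (vertical axis), with 1 point per sample and colours for Con, HMD and Bet+HMD. In each of the 6 columns the Bet+HMD points lie above the HMD points, from 0.43 against -1.23 on average for Cdkn1a to -0.94 against -1.34 for Etnppl.

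Across the 9 samples of the later table, the 15 pairs of genes without Plin4 had a Pearson r of log2(FPKM + 1) between 0.485 and 0.977, with a median of 0.859, and the highest value was that of Sgk1 with Cdkn1a. The 6 pairs with Plin4 had values between 0.0451 and 0.833. The points share 3 groups, and the genes were chosen for 1 difference between them, so these values describe the shape only. Among 13464 genes with a mean of at least 1 FPKM, the 5 outside the 7 whose profile was most like the mean profile of the 7 over the 9 samples were Ptgfrn (r = 0.959), D230025D16Rik (0.955), Sult1a1 (0.939), Cmtm3 (0.938) and Dok7 (0.936). Ptgfrn had 1.86 ± 0.0611 FPKM (SD, n = 3) in Con, 2.49 ± 0.131 in HMD and 2.00 ± 0.0958 in Bet+HMD. Sult1a1, a sulfotransferase that is also on the list of glucocorticoid-induced genes, had 7.50 ± 1.06, 11.7 ± 0.838 and 7.64 ± 0.545 FPKM.

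Of 40 other genes known to be induced by glucocorticoids, none was called in HMD against Con, where 39 could be tested by limma, but 23 of them had all HMD samples above all Con samples, where 4.71% of all genes did, and 1 all below, where 4.66% did. Their median difference was 0.29. This list was chosen with earlier results of these data known, so its counts are a description and not an independent test. In Bet+HMD against HMD, 28 of the 38 tested were called lower and 2 higher, against 25.5% and 22.8% of all genes, with a median of -0.62. Mt2, a metallothionein, fell from 12.9 ± 1.25 to 2.30 ± 0.979 FPKM (SD, n = 3, log2 difference -2.12, SE 0.224, limma adjusted p = 0.000404), and Rhob, a small GTPase, from 222 ± 15.1 to 71.0 ± 4.66 FPKM (-1.63, SE 0.0825, limma adjusted p = 3.37e-05). The 2 that rose were Per1, a clock gene, with a difference of 0.44 (SE 0.0813, limma adjusted p = 0.00395), and Mertk, a receptor for the uptake of dying cells, with 0.25 (SE 0.0869, limma adjusted p = 0.0463), a call that was lost in 6 of 10 alternatives. In Bet+HMD against Con, 16 of 35 tested were lower and 3 higher, against 20.4% and 19.4% of all genes. That count of 19 came to 9 to 11 when any 1 of the Bet+HMD samples was left out.

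**Figure D4:**
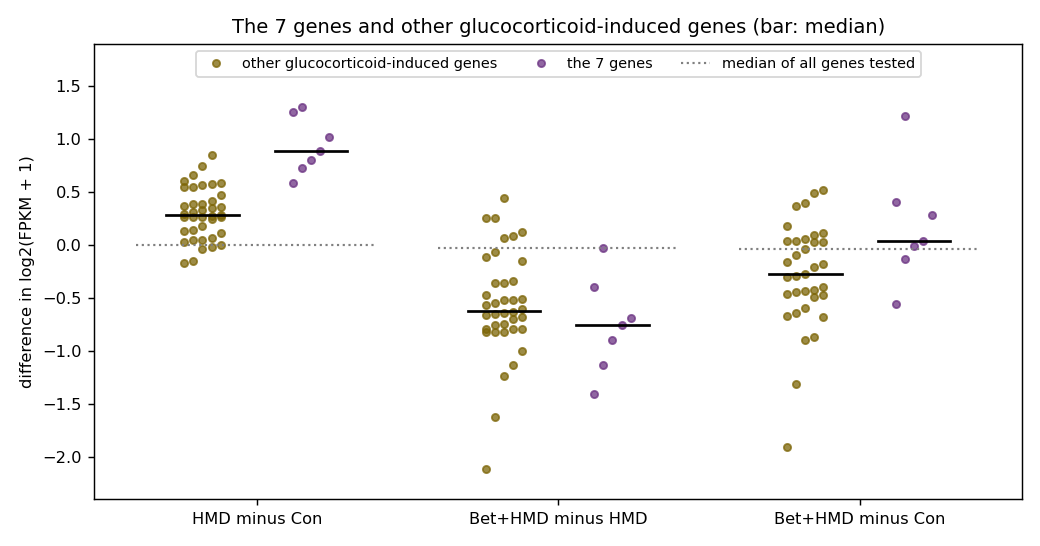
Difference between groups in log2(FPKM + 1) (vertical axis) for the 7 genes and for the other glucocorticoid-induced genes tested in each comparison, with bars for medians and a dotted line for the median of all genes tested. The medians of the other genes were 0.29, -0.62 and -0.27 from left to right, and those of the 7 genes 0.89, -0.75 and 0.04.

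Of 15 receptors, chaperones and cofactors, none was called in HMD against Con by limma, and 5 had a higher mean in HMD. None had all HMD samples above Con and 3 had all below, where 4.71% and 4.66% of all genes did. Nr3c1, the glucocorticoid receptor, had 16.9 ± 2.99 FPKM (SD, n = 3) in Con against 14.0 ± 0.307 in HMD, and Dnaja1, a co-chaperone, had 32.3 ± 4.45 and 27.2 ± 0.283. Of the same 15, 3 were called higher in Bet+HMD than in HMD, where 22.8% of all genes were, and 7 lower, as 6 of the 7 genes were, where 25.5% of all genes were. Hspa8, a chaperone of the HSP70 family, was lower by -0.42 (SE 0.0745, limma adjusted p = 0.00346), though not under quantile normalization (-0.03, limma adjusted p = 0.799), and Bag1, a cofactor of such chaperones, by -0.73 (SE 0.116, limma adjusted p = 0.00216).

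Targets of p53 other than Cdkn1a, 16 in the list, with p53 itself, were tested for 13 genes in HMD against Con. None was called, and the median was -0.06. No gene of them had all HMD samples above Con and 2 had all below, where 4.71% and 4.66% of all genes did. Btg2, another brake of cell division, had 11.1 ± 2.53 FPKM (SD, n = 3) in Con against 6.49 ± 0.874 in HMD, while Trp53inp1, a stress protein that promotes cell death, had 4.73 ± 0.673 and 7.15 ± 1.60, higher in HMD like Cdkn1a. When Bet+HMD was set against HMD, Trp53, the gene of p53, was higher by 0.69 (SE 0.115, limma adjusted p = 0.00263), 4 of the 13 were lower, among them Phlda3, an inhibitor of AKT signalling, at -0.61 (SE 0.105, limma adjusted p = 0.00317), and 8 were not called. The 4 of 13 that were lower stand against 25.5% of all genes.

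Genes of the same families or pathways as the 7, 32 in the list, were tested for 22 genes in HMD against Con, with none called and a median of 0.06. Of the 22, 4 had all HMD samples above all Con samples and 1 all below, where 4.71% and 4.66% of all genes did. Txnip, an arrestin-fold protein related to Arrdc2, had 9.84, 9.28 and 11.4 FPKM in Con and 17.9, 16.9 and 14.9 in HMD, groups that did not overlap. It was lower in Bet+HMD than in HMD by -0.98 (SE 0.0991, limma adjusted p = 0.000342). Sgk3, a kinase related to Sgk1, had 1.44 ± 0.413 FPKM (SD, n = 3) in Con against 2.50 ± 0.297 in HMD, also without overlap. Of 23 tested in Bet+HMD against HMD, 11 were called lower and 3 higher, against 25.5% and 22.8% of all genes, and the smallest p belonged to Cdkn2d, another inhibitor of cyclin-dependent kinases, at -1.18 (SE 0.111, limma adjusted p = 0.000259).

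Clock genes follow the hour of the day and immediate early genes the activity of neurons. Of 16 clock genes none was called in HMD against Con, 12 had a higher mean in HMD and the median was 0.14. Cry1, a repressor of the clock, had 3.51, 3.94 and 4.34 FPKM in Con and 6.53, 6.72 and 5.12 in HMD, groups that did not overlap, and Arntl, an activator, had 3.51 ± 0.306 and 2.74 ± 0.136 (SD, n = 3). Against HMD, 6 of the 16 were called higher in Bet+HMD and 1 lower, where 22.8% and 25.5% of all genes were. Per3 was higher by 1.16 (SE 0.0820, limma adjusted p = 9.54e-05) and Per2 by 0.51 (SE 0.0857, limma adjusted p = 0.00264). Of 15 immediate early genes none was called in HMD against Con either, but 7 had all HMD samples below all Con samples, where 4.66% of all genes did, and the median was -0.46, opposite in sign to the 7 genes. Npas4, induced by neuronal activity, had 4.33 ± 0.690 FPKM (SD, n = 3) in Con against 2.08 ± 0.587 in HMD, and Fosl2, a partner of Jun proteins, 6.36 ± 0.636 against 4.50 ± 0.586. Between Bet+HMD and HMD 3 of 14 tested were higher in Bet+HMD and 3 lower, shares near the 22.8% and 25.5% of all genes, among the latter Dusp1, a phosphatase that glucocorticoids also induce, at -0.52 (SE 0.0932, limma adjusted p = 0.00355).

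No marker of another tissue or cell type was called in HMD against Con, but the sum of thalamus markers was higher in HMD without overlap. The summed level of 8 thalamus markers was 15.2 to 22.5 FPKM in Con, 31.3 to 82.6 in HMD and 23.1 to 24.7 in Bet+HMD. Of 6 tested, 5 had all HMD samples above all Con samples, where 4.71% of all genes did. The summed level of 5 blood markers was 99.75 to 148 FPKM in Con, 149 to 233 in HMD and 72.2 to 122 in Bet+HMD. In the earlier table, where HMD and Con were compared, the blood sums overlapped: Con reached 147.5 FPKM and HMD began at 146.8. The sum of 8 striatum markers was 28.8 to 39.96, 34.3 to 53.2 and 34.8 to 37.4 FPKM, so Con and HMD overlapped, and 7 hippocampus markers summed to 228 to 256, 194 to 234 and 202 to 209 FPKM. By single markers, 3 of 7 striatum markers tested (median 0.29) and 2 of 5 blood markers had all HMD samples above all Con samples. Of 7 hippocampus markers 1 did, and 2 had all HMD samples below, as 4.66% of all genes did. None of these markers was at 0 in all samples of a group. The first HMD sample had the highest thalamus sum, 82.6 FPKM, and was the highest HMD sample for 6 of the 7 genes, all but Spsb1. Leaving out that sample cannot make groups overlap that did not, so only the size of the differences is given. Between HMD and Con the 7 genes then had log2 differences of 0.58 to 1.16. The same number, 6, was called lower in Bet+HMD than in HMD, with Etnppl at -0.30 closest to 0. In Bet+HMD against HMD the thalamus and blood markers tested had lower means, as most of the 7 genes did. Of 6 thalamus markers 3 were called lower, with a median of -1.005, and of 5 blood markers 2, with a median of -0.78. Of all genes tested 25.5% were called lower there. The part of the thalamus and blood markers in either comparison was not tested.

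Marker sums of some cell types of the hippocampus itself, though not of all, also lay apart between HMD and Bet+HMD. The calls below stand against 25.5% of all genes tested called lower in Bet+HMD and 22.8% called higher. Libraries of Bet+HMD mice had lower FPKM totals, 249135 to 258514, than HMD libraries, with 289606 to 292361. Whether the marker sums still lie apart under TPM was not tested. The summed level of 10 astrocyte markers was 791 to 854 FPKM in Con, 779.9 to 854 in HMD and 792 to 797 in Bet+HMD, ranges that overlap, and 2 of the 10 were called lower and 1 higher in Bet+HMD than in HMD. The sum of 6 microglia markers was 88.0 to 99.0 FPKM in HMD and 72.9 to 73.8 in Bet+HMD, and that of 8 endothelium markers 90.7 to 101.03 and 72.5 to 78.7 FPKM, with 3 markers of each called lower. The sum of 8 oligodendrocyte markers was 814 to 1090 FPKM in HMD and 787 to 796 in Bet+HMD, with 4 called lower. Mural cells of vessels went the other way, with a sum of 65.9 to 70.2 FPKM in HMD and 75.6 to 79.0 in Bet+HMD and 2 of 5 tested called higher. The sum of 6 choroid plexus markers, 869.7 to 2582 FPKM in HMD and 939 to 1214 in Bet+HMD, overlapped. The part of these cell types in the difference of the 7 genes between Bet+HMD and HMD was not tested.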

How the data were processed

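Hippocampal RNA was depleted of ribosomal RNA and sequenced as stranded paired-end libraries. The submitters' processing notes name HISAT2 2.1.0, featureCounts 1.5.0-p3 and the mm10 build, while the study's methods give other versions of both tools. The authors deposited FPKM, scaled to library size and gene length, in 2 tables, an earlier one of Con and HMD and a later one that holds all 9 samples. The deposited tables also list gene lengths (another unit) and positions; 98.3% of the 54409 identifiers found in GENCODE M21 had the same start and end. FPKM times gene length gave whole reads within 0.05 for 100% of values, which gave the depth. Between the tables, the values of the 7 genes in the shared samples changed by -0.917% to 3.24%. Columns named COL were read as Con, an inference from the prefixes of the remaining columns.

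The members and all gene lists were chosen with earlier results of these data known. The earlier table served for HMD against Con and the later one for both comparisons of Bet+HMD, in fits of the 2 groups compared. Linear models of limma 3.58.1 (R 4.3.3) with an intensity trend took log2(FPKM + 1) of genes with a mean of at least 1 FPKM, a scale that understates changes of low genes. p-values were two-sided and adjusted by Benjamini-Hochberg over all genes tested, with a threshold of 0.05. The study used a count model; here voom on the recovered reads was an alternative. Besides the 7 genes, those named were the 3 of the glucocorticoid list next in p in HMD against Con, its 2 largest rises and falls among calls in Bet+HMD against HMD, up to 2 per other list with the smallest p in each of these comparisons, and the 5 closest profiles. SD is over 3 samples. Nothing in the sources used here says that samples of a group came from separate experiments, so p-values measure the spread between these samples.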

Additional observations from a re-analysis of the deposited data

How the results depend on the processing

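Alternatives were a pseudocount of 0.1, no filter, a filter at 5 FPKM, TPM, quantile normalization, a replicate block, voom on recovered reads, 1 fit of all 3 groups, TMM scaling for the overlap of groups, HMD and Con taken from the later table, and the omission of each sample. All 7 genes kept HMD above Con, which their selection favoured and which leaving out a sample or comparing same-numbered samples could not undo. In Bet+HMD against HMD 6 were called lower, or 5 where Etnppl was lost. In HMD against Con 10 genes of the table were called in the fit of all 3 groups and 2 without the second Con sample. TPM moved the median of all genes to 0.16 in Bet+HMD against HMD and to 0.17 against Con. Differences near 0 changed sign. Plin4 in Bet+HMD against HMD came to 0.151 (TPM) and 0.0488 (voom), and ran from -0.161 to 0.0726 without a sample. Against Con, Cdkn1a came to 0.0371 (TPM); Sgk1 to 0.211 (TPM), 0.203 (quantile) and 0.0775 (voom), and from -0.0634 to 0.0691 without a sample; and Spsb1 to -0.0295 (quantile) and from -0.00544 to 0.0790 without a sample. Members higher in Bet+HMD than in Con numbered 1 with the filter at 5 FPKM, which removes Plin4, and 1 to 3 without a sample, with 1 when the first Bet+HMD sample and 3 when the third Con sample was left out. Those lower numbered 2 under quantile normalization, with Cdkn1a. The other glucocorticoid-induced genes called against Con numbered 9 to 22 without a sample, and genes of the 5 further lists 19 to 38.

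Same-numbered samples are different mice, so the numbers were not taken as pairs. The correlation of their deviations was -0.0555, 0.346 and 0.319 for numbers 1 to 3 in HMD against Con, and -0.176 to 0.0171 in the comparisons with Bet+HMD. In HMD against Con, 2 of the 3 HMD samples were closest to the Con sample of their own number. The replicate block raised the genes with an unadjusted limma p under 0.05 there from 592 to 1034, with 0 called. Whether the numbers stand for a shared factor was not tested. With the replicate block the calls of the 7 genes were the same, the other glucocorticoid-induced genes called in Bet+HMD against Con numbered 10 instead of 19, and all genes called numbered 5615 instead of 6607 against HMD and 3924 instead of 5422 against Con.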
